A study of Homo sapiens with 6 samples.

Results

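The 7 genes described here form the core of the Hedgehog pathway: the transcription factors GLI1, GLI2 and GLI3, the receptor PTCH1, the transducer SMO, the inhibitor SUFU and the ligand-binding protein HHIP. They were chosen by symbol, with earlier results of these data known, and all 7 were found among 58825 Ensembl gene identifiers. SKOV3 is an established human ovarian cancer cell line. Its cells received either a negative control siRNA (NC, 3 libraries) or an siRNA against EIF5A2, a translation factor (si-EIF5A2, 3 libraries), and messenger RNA was sequenced 48 h later. Both groups were transiently transfected and neither carries another genetic change named in the labels. A single siRNA was used, and the labels do not say whether the 3 libraries of a group came from separate cultures, so p-values measure only the spread between these libraries.

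In Hedgehog signaling, a secreted ligand binds PTCH1 and relieves the block that PTCH1 places on SMO. Active SMO then frees the GLI factors from SUFU at the primary cilium. GLI2 is known mainly as the activator, GLI3 is cut to a repressor when no ligand is present, and GLI1 is an activator that is itself a target gene. PTCH1 and HHIP are also GLI target genes that feed back on the ligand, and the pathway is studied in ovarian cancer for its links with growth and stem cell traits.

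The library totals ran from 46900204 to 74142267 estimated counts, and low values of the table recurred at steps of about 3.72 counts (3.68 to 3.77 in single libraries), taken here as the worth of 1 fragment, so a library holds fewer fragments than counts. A gene at 0 counts may still be present at up to 3 fragments, or 0.153 to 0.237 CPM (counts put on a common library size with TMM factors), a limit that covers counting error only. EIF5A2 itself was at 12.7% of its NC level in si-EIF5A2 libraries (29.1 ± 1.15 against 3.69 ± 0.817 CPM). Here and below, ± gives the SD over the 3 libraries of a group. Of the markers of the labelled cells, KRT8 (608 CPM in NC), KRT18 (418 CPM), KRT7 (382 CPM) and PAX8 (106 CPM) were high. ERBB2 (45.9 CPM) was mid-range, at percentile 59.5 of all genes tested by mean level per kilobase of exon. KRT19 (3.22 CPM), WT1 (2.36 CPM), EPCAM (1.55 CPM), MSLN (0.666 CPM) and CDH1 (0.663 CPM) were low. MUC16 was at 0 counts in every library. Of 5 leukocyte markers 3 were at 0 counts in every library, among them PTPRC and CD3E, CD14 had 0 to 4 counts, and CD68 was at 46.3 ± 9.57 CPM in NC and 39.1 ± 14.3 CPM after knockdown, nearly the whole sum of the list. Of 5 fibroblast markers, DCN, LUM and COL3A1 were at 0 counts in every library but si-EIF5A2 replicate 3 (11, 11 and 34 counts), and COL1A1 had 3 to 84 counts in NC and 40 to 95 after knockdown. PDGFRB had 19, 52 and 38 counts in NC and 0, 0 and 4 after knockdown and was called lower. It passed the filter on low counts only through NC, so a difference was required of it. The call was lost when NC replicate 2, NC replicate 3, si-EIF5A2 replicate 1 or si-EIF5A2 replicate 2 was left out. The summed CPM of 6 epithelial markers was 1370 to 1510 in NC and 851 to 1060 in si-EIF5A2 libraries, with KRT7 and KRT8 called lower, and PAX8 was called lower as well. The sums were 0.872 to 1.41 and 0.782 to 3.23 for 5 fibroblast markers, 40.7 to 57.4 and 29 to 55.5 for 5 leukocyte markers and 1.94 to 2.37 and 0 to 1 for 3 endothelial markers. Their part in the results was not tested.

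After EIF5A2 knockdown, 3 of the 7 genes were downregulated: GLI2 to 26.0% of its NC level, GLI3 to 37.8% and SMO to 62.5%. None of the 7 was upregulated. SUFU was lower by less than the limit on the fold change, PTCH1 could not be told apart between the groups, and GLI1 and HHIP were too low to be tested. Calls required an adjusted p under 0.05 by edgeR (quasi-likelihood F test, Benjamini-Hochberg over 16208 genes) and more than 1.5-fold difference. By this rule 24.6% of all genes tested were called, 13.6% lower and 11.1% higher, so 3 of the 5 tested members compares with a background in which changes were common. The CPM ranges of the groups were apart for 4 of the 5 tested members and for 51.2% of all genes tested. The median log2 fold change of the 5 tested members was -0.68, against -0.010 over all genes tested. The 5 genes that passed a filter on low counts do not stand for all 7. In bulk RNA, fewer cells that express a gene and less RNA per cell cannot be told apart.

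**Figure D1:**
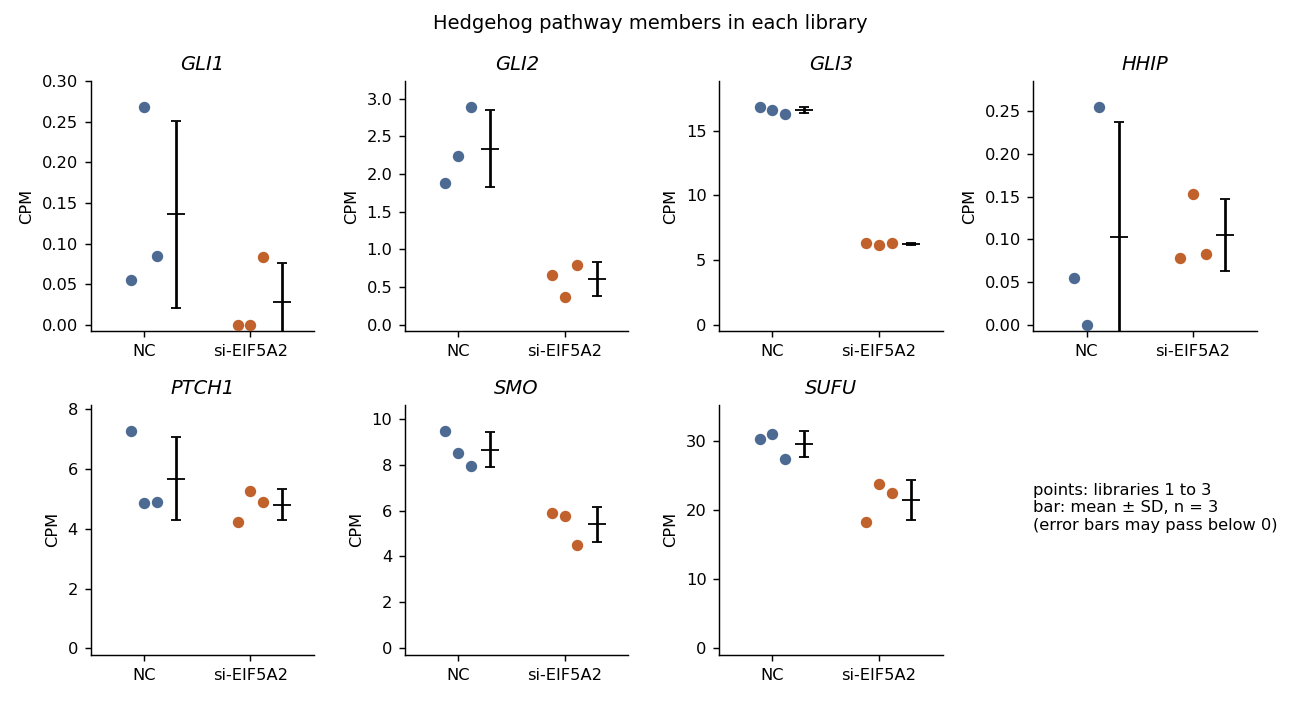
Level of each member in CPM (vertical axes, linear, each with its own scale) in the 3 NC and 3 si-EIF5A2 libraries; points are libraries and the bar beside them is the mean ± SD (n = 3). The NC and si-EIF5A2 points are apart for GLI2, GLI3, SMO and SUFU, mix for PTCH1, and lie near 0 for GLI1 and HHIP.

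The 3 GLI genes encode zinc finger proteins that bind the same DNA motif. GLI3 (ENSG00000106571) is a minus-strand gene of chromosome 7 (41960950 to 42237870, GENCODE release 29, GRCh38). It had 16.8, 16.6 and 16.3 CPM in NC replicates 1 to 3 and 6.34, 6.19 and 6.30 CPM in si-EIF5A2 replicates 1 to 3. The 6 libraries formed a pair of tight, separate clusters. The log2 fold change of GLI3 was -1.40 (standard error 0.11; edgeR adjusted p = 5.64e-05), with a 95% interval from -1.66 to -1.15. Dropping any 1 library kept GLI3 between -1.42 and -1.39. GLI3 was among the genes that the study followed up after seeing these libraries, so its fall here is not independent evidence. The paper lists GLI3 primers for qRT-PCR. Among the stem cell genes checked this way, it names HES1, besides KLF4, as downregulated over 2-fold and does not name GLI3. Its text gives no qRT-PCR value for GLI3, which was 2.64-fold lower here.

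GLI2 (ENSG00000074047) lies on the plus strand of chromosome 2 from 120735623 to 120992653. Its level was low, with 1.88, 2.24 and 2.89 CPM in NC and 0.665, 0.364 and 0.792 CPM after knockdown. The lowest NC library was still well above the highest si-EIF5A2 library. These levels rest on few fragments, about 37, 43 and 37 in NC and 9, 5 and 10 in si-EIF5A2 libraries. The log2 fold change of GLI2 was -1.94 (standard error 0.37; edgeR adjusted p = 0.0044), with a wide 95% interval from -2.80 to -1.09. Pooled over each group, the si-EIF5A2 level was 0.259 of the NC level, with an exact 95% interval from 0.159 to 0.404 for counting error only. With a library left out GLI2 moved between -2.18 and -1.68 and stayed called.

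GLI1 (ENSG00000111087), on chromosome 12 from 57460135 to 57472262, was near the detection limit in all 6 libraries. NC replicates 1 to 3 held 4, 19 and 4 counts of GLI1 and si-EIF5A2 replicates 1 to 3 held 0, 0 and 4, about 7 fragments against 1. The groups overlapped. The ratio of si-EIF5A2 to NC was 0.180 with an exact 95% interval from 0.0040 to 1.40 for counting error, so a difference in GLI1 was not detectable at this depth. Exons of GLI1 overlap those of ARHGAP9 on the opposite strand by 8 bases, and ARHGAP9 had 205, 227 and 89 counts in NC and 0 in each si-EIF5A2 library. Reads of the pair cannot be told apart there without strand, which the sources used here do not give.

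GLI3 made up most of the GLI transcripts in both groups. Levels per length were taken as counts divided by the kilobases of annotated exon within the same library, which needs no scaling between libraries. On this scale the GLI3 share of the 3 GLI genes was 85.1%, 80.4% and 78.3% in NC and 86.5%, 91.9% and 81.8% after knockdown. The GLI2 share was 17.0% ± 3.32 in NC and 12.3% ± 3.79 after knockdown. The shares of the groups overlapped for both genes, and the difference did not pass an exact two-sided permutation test for GLI3 (5.49 percentage points higher, p = 0.20) or for GLI2 (-4.70 percentage points, p = 0.20), where 3 against 3 libraries allow no p below 0.10. Without si-EIF5A2 replicate 2 the differences were 2.89 and -2.58 percentage points, and without NC replicate 3 the GLI2 difference was -2.88. A different size of the fall of GLI2 and GLI3 was thus not shown.

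**Figure D2:**
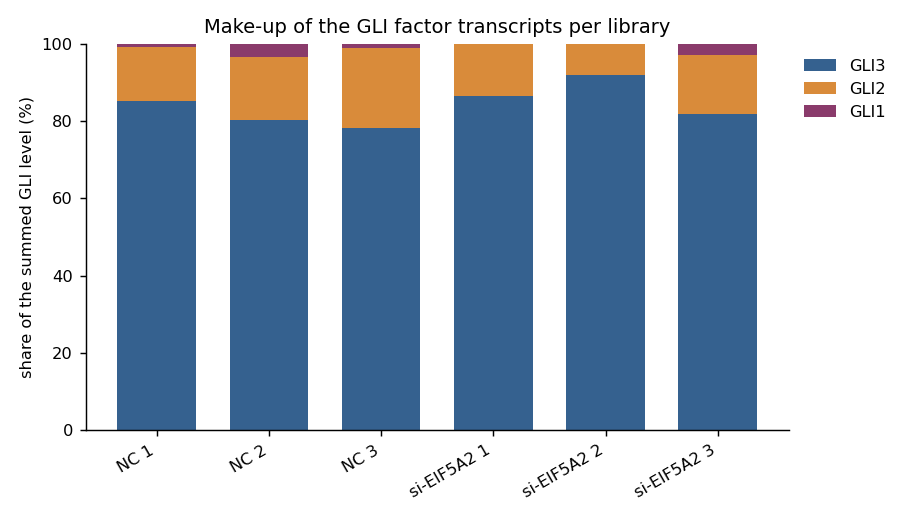
Share of GLI1, GLI2 and GLI3 (percent, vertical axis) in their summed level per kilobase of exon, 1 stacked bar for each of the 6 libraries. GLI3 takes 78.3% to 91.9% of every bar, and the GLI1 segment is absent in si-EIF5A2 replicates 1 and 2.

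SMO (ENSG00000128602), the seven-pass membrane protein that carries the signal into the cell, lies on chromosome 7 from 129188872 to 129213545. It had 9.47, 8.51 and 7.95 CPM in NC and 5.91, 5.77 and 4.52 CPM after knockdown, without overlap. The log2 fold change of SMO was -0.68 (standard error 0.16; edgeR adjusted p = 0.0122), with a 95% interval from -1.05 to -0.31. SMO lay near the limit on the fold change: without si-EIF5A2 replicate 3 its value was -0.57 (edgeR adjusted p = 0.0367), and the call was lost.

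SUFU (ENSG00000107882), which holds GLI factors in the cytoplasm, lies on chromosome 10 from 102503987 to 102633535. It had 30.2, 30.9 and 27.3 CPM in NC and 18.2, 23.7 and 22.5 CPM after knockdown, and the groups did not overlap. The log2 fold change of SUFU was -0.46 (standard error 0.12; edgeR adjusted p = 0.0205), which is 1.37-fold lower and under the 1.5-fold limit. SUFU was therefore not called, also with each library left out (-0.54 to -0.36), and its edgeR adjusted p rose to 0.0593 without NC replicate 1 and to 0.0732 without NC replicate 2.

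PTCH1 (ENSG00000185920), the receptor and a GLI target, is a minus-strand gene of chromosome 9 (95442980 to 95517057). It had 7.28, 4.86 and 4.91 CPM in NC and 4.24, 5.27 and 4.90 CPM after knockdown. The groups overlapped, and NC replicate 1 stood above the other 5 libraries. The log2 fold change of PTCH1 was -0.24 (standard error 0.21; edgeR adjusted p = 0.413), with a 95% interval from -0.72 to 0.24, and -0.025 without NC replicate 1. The interval reaches past the 1.5-fold limit on the lower side, so a fall of that size was not shown to be absent. An antisense gene, AL161729.1, lies opposite 4.29% of the PTCH1 exon bases, with 7 to 35 counts a library.

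PTCH1 has several annotated starts, and the GLI motif lies at one of them. It is shown because PTCH1 is the tested member that is also a target of the GLI factors that fell. In the RefSeq promoter table (GRCh38.p14, 250 bases before to 50 after each start), 5 of the 7 members had entries: GLI2, PTCH1, SMO, SUFU and HHIP. The 9-letter GLI motif GACCACCCA was searched on both strands and was found in 0.236% of 35116 promoters. Among the members, a match was found only in PTCH1, 172 bases before a start inside the gene, at chromosome 9 from 95509430 to 95509438. There GENCODE release 29 places 6 PTCH1 transcripts across the match and 0 exons on it. The stretch chr9:95509410-95509458, minus strand and 5′ to 3′, is given with the match in capitals, where it reads as the reverse complement of the motif.
PTCH1 promoter: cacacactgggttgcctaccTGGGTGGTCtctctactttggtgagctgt
The E2F motifs TTTCCCGC, TTTCGCGC, TTTGCCGC and TTTGGCGC, present in 3.31% of promoters, and the KLF motif CCACACCC, present in 3.28%, were not found in the windows of these 5 members. E2F and KLF letters were searched because the study follows E2F1 and KLF4. Among the other pathway genes, E2F letters were found at DISP1, RAB23 and MYCN and KLF letters at PRKACA and ABCG2. A match says only that these letters occur in the window.

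HHIP (ENSG00000164161), a membrane protein that binds and sequesters Hedgehog ligands, lies on chromosome 4 from 144646021 to 144745271. Its counts were 4, 0 and 12 in NC and 4, 8 and 4 after knockdown, about 4 fragments in each group. No fold is given, since both groups were at about the limit of 3 fragments a library. The antisense gene HHIP-AS1 shares 178 exon bases with it.

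Between genes, levels can be compared only per length. In NC the order of CPM per kilobase of exon was SUFU (4.29), SMO (2.01), GLI3 (1.51), PTCH1 (0.342), GLI2 (0.319), GLI1 (0.0324) and HHIP (0.00856). PTCH1 and GLI2 overlapped in NC libraries, as did GLI1 and HHIP; the other neighbours did not. In si-EIF5A2 libraries the order of the first 5 was the same, and PTCH1 (0.256 to 0.318) no longer overlapped with GLI2 (0.0496 to 0.108). PTCH1 has 16.6 kb of exon summed over all its annotated transcripts, more than any other member, and its level per kilobase is lowered by exons that may not be used. Among all genes tested, the mean level per kilobase of SUFU was at percentile 55.8, SMO at 40.2, GLI3 at 33.0, PTCH1 at 16.3 and GLI2 at 11.3. Within each library, the log2 ratio of PTCH1 to SMO per kilobase was -2.32, -2.75 and -2.64 in NC and -2.42, -2.07 and -1.83 in si-EIF5A2 libraries. The groups overlapped, and the difference of 0.46 did not pass the exact two-sided permutation test (p = 0.20, smallest possible 0.10).

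**Figure D3:**
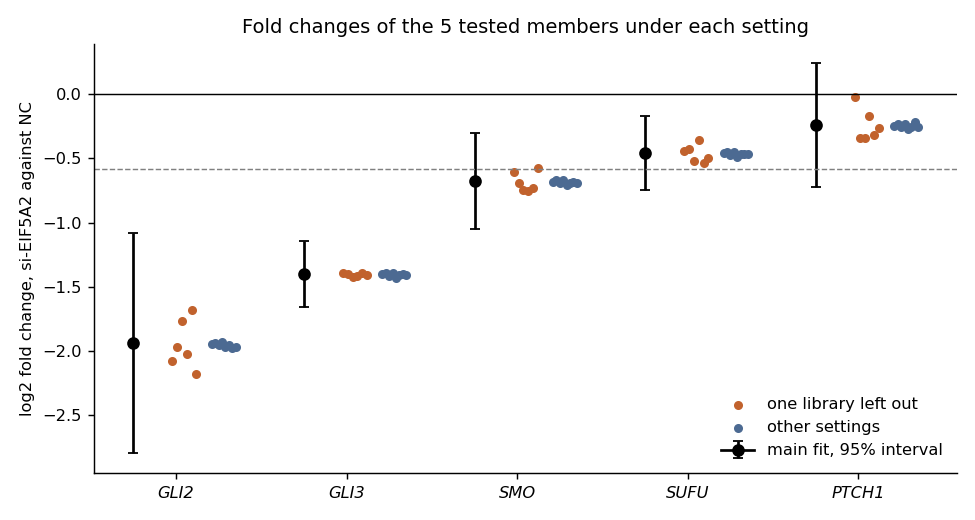
Log2 fold change of the 5 tested members (vertical axis, si-EIF5A2 against NC): black, main value with its 95% interval; orange, each of the 6 libraries left out; blue, other settings. The dashed line marks 1.5-fold lower; the points of GLI2 and GLI3 lie below it throughout, 1 point of SMO lies above it, the points of SUFU lie above it, and 1 point of PTCH1 is close to 0, while the intervals of SMO, SUFU and PTCH1 cross the line.

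The genes most like each downregulated member were found by the root mean square difference of log2 CPM, each gene centred on its own mean over the 6 libraries, among the other 16207 genes tested. For GLI3 these were KCTD12 (difference 0.0397), JADE2 (0.0428) and ITGA3 (0.0435). For SMO they were FZR1 (0.0388), BOD1 (0.0622) and P2RY2 (0.0659). The pattern of GLI2 was noisier, and its nearest genes were less close: an unnamed noncoding gene (ENSG00000261253, 0.166), PTPN22 (0.167) and RRM2 (0.172).

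The rest of the pathway, another 78 genes, was described by role. The lists were written by hand from general knowledge, with earlier results of these data known. Of these 78 genes, 65 were tested, 9 were called lower and 9 higher (27.7%, against 24.6% of all genes tested), and their median log2 fold change was 0.022. Calls were thus as many in each direction, and the counts by role that follow were not tested against other genes.

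Of the 7 genes in the list of ligands and ligand release, 4 were tested and 3 were called lower, with a median log2 fold change of -2.25. DHH, Desert hedgehog, was the only one of the 3 ligands above the detection limit: NC replicates 1 to 3 held 95, 67 and 22 counts, and each si-EIF5A2 library held 0. Against a limit of 3 fragments over the whole si-EIF5A2 group, and with its NC level taken as exact, DHH was at least 13.1-fold lower (edgeR adjusted p = 0.00223). This bound covers counting error in the si-EIF5A2 group only, and neither counting error in NC nor the spread between libraries. DHH passed the filter on low counts only through NC, so a difference was required of it, and the list held 2 calls with at least 10 counts asked of every library and with counts divided by their step, where DHH was not tested. SHH had 4 counts in NC replicate 1 and in si-EIF5A2 replicate 2 and 0 elsewhere, and IHH was at 0 counts in every library. SCUBE3, a secreted relative of SCUBE2, which helps release Hedgehog ligands, fell from 1.80 ± 0.175 to 0.238 ± 0.0657 CPM. After knockdown SCUBE3 had only 16, 10 and 10 counts, near the limit of 3 fragments a library (11.2 counts), so the size of its fall is uncertain. In si-EIF5A2 replicate 2 it was just under the filter on low counts, so it passed that filter through NC. The call of SCUBE3 was kept in all 14 alternatives, among them at least 10 counts asked of every library. DISP1, which exports the lipid-modified ligand, fell from 3.10 ± 0.993 to 1.03 ± 0.323 CPM, a log2 fold change of -1.59. HHAT, which palmitoylates the ligand, had 5.03 ± 0.773 and 5.39 ± 0.297 CPM (edgeR adjusted p = 0.699). SCUBE2 had 12, 20 and 8 counts in NC and 0, 0 and 11 in si-EIF5A2 libraries and was not tested. DISP1 shares 7.47% of its exon bases with a noncoding gene on the same strand.

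Of the 6 co-receptors and surface binders, 4 were tested and 0 were called in either direction, with a median log2 fold change of 0.38. They include the co-receptors CDON, BOC and GAS1. Neither edgeR nor DESeq2 called any of the 4, the smallest edgeR adjusted p was 0.173 (BOC, unadjusted 0.0882), and at an unadjusted p under 0.05 the count was also 0. Of the 8 genes that act with SMO, 1 was called: EVC, which binds SMO in the cilium, fell from 87.5 ± 7.58 to 57.0 ± 2.29 CPM (log2 fold change -0.62). EVC lost its call when NC replicate 2 or si-EIF5A2 replicate 2 was left out, its values with a library left out ran from -0.67 to -0.54, and the number called in this list was 4 with DESeq2.

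Among 17 genes that process or degrade GLI proteins, 2 were called, both lower, and the median log2 fold change was -0.055. BTRC, the ubiquitin ligase subunit that recognises phosphorylated GLI2 and GLI3, fell from 26.4 ± 1.59 to 8.67 ± 1.33 CPM, a log2 fold change of -1.61. PRKACA, a catalytic subunit of protein kinase A, which phosphorylates GLI proteins, fell from 68.0 ± 9.76 to 25.9 ± 1.04 CPM, a log2 fold change of -1.39. For both genes the libraries of the groups did not overlap.

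The list of ciliary transport holds genes of the cilium and its base, many of which carry pathway proteins into or out of the cilium. All 18 were tested, 5 were called higher and 0 lower, so 27.8% were called, against 24.6% of all genes tested (11.1% higher and 13.6% lower). Their median log2 fold change was 0.39, and 6 of the 18 lay below 0. The lowest was IFT80 (-0.39, edgeR adjusted p = 0.0831), named after its values were seen. IFT80 shares 8.46% of its exon bases with SMC4 on the opposite strand. SMC4 had 5660, 6176 and 4063 counts in NC and 966, 1057 and 953 after knockdown, and its part in the IFT80 value was not tested. IFT27, a small GTPase of the intraflagellar transport particle, rose from 8.19, 7.30 and 7.95 CPM in NC to 28.6, 30.1 and 30.5 CPM after knockdown, with a log2 fold change of 1.93 (standard error 0.10; edgeR adjusted p = 1.09e-05). DYNC2LI1, a subunit of the retrograde dynein motor, rose 1.96-fold and TULP3, an adaptor that brings membrane proteins into the cilium, rose 1.61-fold. TMEM67 and IFT52, named after their values were seen, were the other 2 called. TMEM67 lost its call when NC replicate 1 or si-EIF5A2 replicate 1 was left out, and IFT52 without si-EIF5A2 replicate 2. At an unadjusted p under 0.05 with a fold over 2, only IFT27 of this list passed.

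GLI target genes moved in both directions. Of 15 listed genes outside the members 11 were tested, 3 were called lower and 2 higher, and the median was 0.30. CCND1, which encodes cyclin D1, fell from 1430 ± 84.5 to 831 ± 50.4 CPM, IGFBP6 from 46.9 ± 4.80 to 25.4 ± 5.86 CPM and BMP4 from 2.06 ± 0.503 to 0.728 ± 0.0753 CPM. SFRP1, a secreted WNT antagonist, rose from 69.8 ± 3.79 to 143 ± 1.58 CPM, and ABCG2, a drug efflux pump, from 0.618 ± 0.202 to 2.08 ± 0.692 CPM. Many factors other than GLI act on these genes. No GLI motif was found in the promoter windows of the 59 pathway genes outside the members that had entries. CCND1 shares 10.3% of its exon bases with LTO1 on the opposite strand.

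Of 8 zinc finger genes related to GLI, 4 were tested, and GLIS2 and ZIC5 were called higher. ZIC5 rose from 7.17 ± 0.634 to 11.5 ± 0.705 CPM and GLIS2 from 41.4 ± 7.25 to 64.2 ± 3.30 CPM. GLIS2 lost its call when NC replicate 2, NC replicate 3 or si-EIF5A2 replicate 3 was left out, and 24.5% of its exon bases lie opposite another gene.

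**Figure D4:**
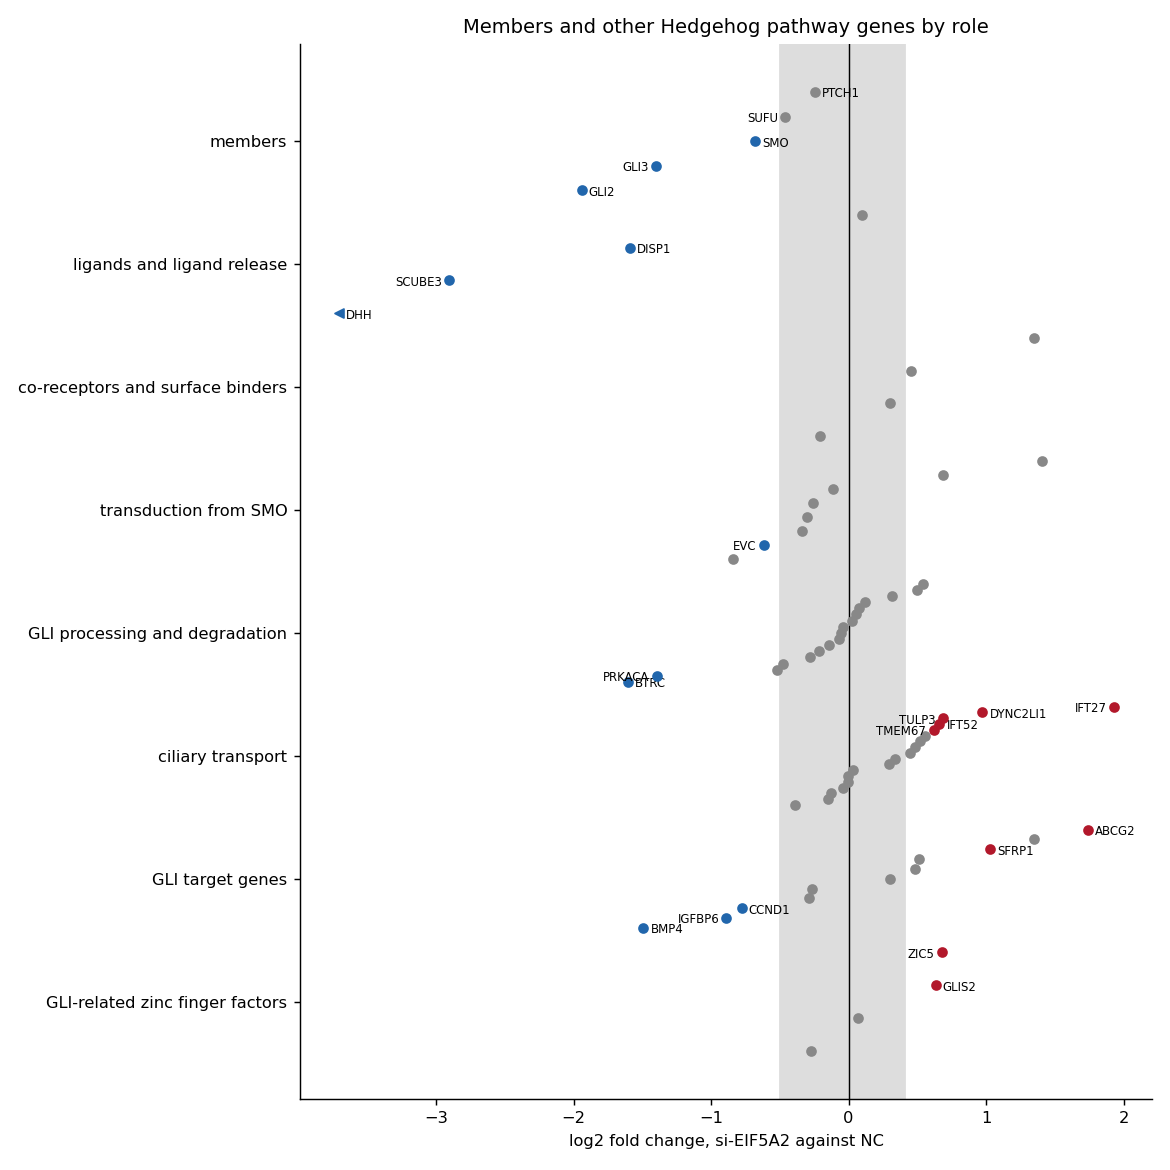
Log2 fold change (horizontal axis, si-EIF5A2 against NC) of the 5 tested members and 65 other tested pathway genes, by role; blue, called lower; red, called higher; grey, not called; the grey band spans the lower to the upper quartile of all genes tested (-0.50 to 0.41) and the triangle is the bound for DHH. The leftmost points are DHH and SCUBE3 of the ligand list, and the ciliary list holds 5 red points and no blue one, and a gene is drawn in each list that holds it.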

How the data were processed

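Groups and replicate numbers came from the sample titles and the 48 h from the series description. The authors made paired-end messenger RNA libraries and name StringTie and ballgown for expression levels. How the deposited table was made is not given in the sources used here. The values, as the authors deposited them, are whole numbers without scaling for depth or length, and were taken as estimated counts because low values recur at steps of several counts. Notes in the labels name Bowtie 0.12.2 and the mouse builds mm8 and mm9, while the identifiers are human; the aligner and build behind this table are otherwise not given in the sources used here. The 6 columns were matched to the 6 titles by name, with 0 left over. Rounding changed nothing, so the edgeR test planned for counts was used.

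edgeR 4.0.16 (R 4.3.3) was run with filterByExpr, TMM, robust quasi-likelihood fits and the condition as the only term, adjusted over 16208 genes. Standard errors are the log2 fold change over the square root of F. Members and lists were chosen with earlier results of these data known. Named genes were the members, EIF5A2, every ligand gene, up to 3 called genes per list and direction, and 3 similar genes per called member; BOC and other genes of a list were added to describe it, and a few genes of the lists are not reported here by name. Positions came from GENCODE release 29 and promoters from RefSeq. Alternatives were DESeq2 1.42.0, other normalizations and filters, a replicate block, counts divided by their step, other thresholds and each library left out. Steps were tested on simulated data.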

Additional observations from a re-analysis of the deposited data

How the results depend on the processing

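Of 70 values for the 5 tested members (14 alternatives each), 69 kept their direction and their side of the threshold. The exception was SMO, which was -0.57 without si-EIF5A2 replicate 3, under the fold limit. Leaving out a library moved GLI2 between -2.18 and -1.68, GLI3 between -1.42 and -1.39, SMO between -0.76 and -0.57, SUFU between -0.54 and -0.36, PTCH1 between -0.35 and -0.025 and EIF5A2 between -3.10 and -2.82. The difference in the GLI1 share (-0.781 percentage points) ran from -1.72 to 0.0482, the reversal coming without NC replicate 2, the library with most GLI1 counts. The differences in the GLI2 and GLI3 shares ran from -6.22 to -2.58 and from 2.89 to 7.95 points. The threshold moved the counts of calls most: 2370 genes passed an unadjusted p under 0.05 with a fold over 2, against 3992, with 872 higher against 1792; 2911 were higher with no fold limit. Of the 78 pathway genes, 10 passed the unadjusted p with the fold over 2, which asks less of p and more of the fold, against 18, and of 112 counts by list 17 moved by over 1.5 times. No count of calls over all genes moved by over 1.5 times under another tool, normalization or filter. With the replicate number as a block 3731 genes were called, and no member changed its call (GLI2 -1.98, adjusted p = 0.00969 in edgeR). Same-numbered libraries did not deviate together (r = -0.0244, 0.00522 and -0.0027), so the numbers are not taken as pairs. Depth limits GLI1, HHIP, SHH and SCUBE2, which rest on few fragments. It also limits how well the size of the fall is known for the called genes GLI2, SCUBE3 and DHH, which had few or no fragments after knockdown.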
